A study of Mus musculus with 2 samples.

Results

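This section describes 10 mouse genes that encode general protein-folding chaperones: Hspa1a, Hspa1b, Hspa8, Hsph1, Dnajb1, Dnaja1, Hsp90aa1, Hsp90ab1, Hspd1 and Hspe1. They were taken by gene symbol, 10 of the 31053 genes listed, and read in every cell class of the marrow that could be named from marker genes. The set carries the name cytosolic heat shock chaperones, but 2 of its members, Hspd1 and Hspe1, encode chaperonins of the mitochondrial matrix, so the name holds for the other 8. Bone marrow came from aged C57BL/6J mice whose transplanted gut microbiota were young, the group FMT_young, or aged, the group FMT_aged. Each group has a single library. Every recipient was aged, so age of the recipient is shared, and the age of the microbiota donor is the labelled difference between the groups. With a single library per group, anything else that differed between the animals or libraries cannot be told apart from it. The labels give no ages, no untreated mice and no number of animals per library. Each library was a sorted mixture of whole marrow, lineage-negative cells and lineage-negative Kit-positive progenitors in parts of 1, 1 and 4, so progenitors are over-represented and shares of cells are set by the sort.

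Heat shock chaperones bind unfolded stretches of other proteins and let them fold. Hsp70 proteins work in cycles of ATP hydrolysis that J-domain proteins start and that Hsp110 proteins reset by exchanging the nucleotide, and they pass some clients on to Hsp90, which matures kinases and steroid receptors. Some of these genes are transcribed at all times in growing cells, whereas others are induced by heat, oxidation or cell handling through heat shock factors, which bind repeats of the units GAA and TTC, and haematopoietic stem cells are known to depend on tight control of protein folding.

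With 1 library in each group there is no replicate and no test between groups, and no p-value or standard error is given. A level is the number of unique molecular identifiers (UMIs, counted transcripts) of a gene summed over the cells of a class, scaled to a class total of 1000000 UMIs (CPM). A ratio is the log2 of the FMT_young level over the FMT_aged level, with a 95% interval that covers counting error only. A gene was called higher or lower in FMT_young where the ratio was at least 0.5 in size, its interval excluded 0 and the gene had at least 30 UMIs in both libraries together. After doublets were removed, 10793 FMT_young and 10320 FMT_aged cells were kept. The median cell of FMT_young held 10871 UMIs, 2.62% of them mitochondrial by the median, against 11418 and 2.95% for FMT_aged. The libraries shared 33 cell barcodes. They formed 31 clusters, of which 29 fell into 16 classes named by marker genes, and 15 classes had 50 cells or more in each library. The cells read as haematopoietic stem cells (HSC-like) were 1 cluster of 598 FMT_young and 849 FMT_aged cells led by Hlf, Meis1 and Mecom. Markers of multipotent progenitors were also present in it, and an earlier form of the naming rule gave it their name, so the class may hold both. No cluster met the marker lists of erythroid cells, megakaryocytes or early B cells. Plasma-like cells held 3 clusters with over 90% of their cells from 1 library (903 and 3, 343 and 1, and 6 and 324 FMT_young and FMT_aged cells), and basophil- or mast-like cells held 1 (4 and 54).

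Stretches upstream of the genes are shown because heat-inducible transcription is read from them. RefSeq promoter windows on GRCm38.p6, from 250 bases before to 50 bases after a start site, were present for 7 of the 10 members, in 12 windows, and not for Hspa8, Hsp90aa1 and Hsp90ab1. Capitals mark GAANNTTC or TTCNNGAA, the forms with a pair of units, searched on both strands; these motifs read the same on either strand and can overlap. A stricter search used 3 such units in alternation, each parted by NN. A 3-unit form was in 0.603% of the 32817 windows of the table, GAANNTTC in 7.86% and TTCNNGAA in 8.51%, so the forms with a pair of units are common. The windows below run 5′ to 3′ on the strand of the gene.
Hspa1a, chr17:34972107-34972406, minus strand: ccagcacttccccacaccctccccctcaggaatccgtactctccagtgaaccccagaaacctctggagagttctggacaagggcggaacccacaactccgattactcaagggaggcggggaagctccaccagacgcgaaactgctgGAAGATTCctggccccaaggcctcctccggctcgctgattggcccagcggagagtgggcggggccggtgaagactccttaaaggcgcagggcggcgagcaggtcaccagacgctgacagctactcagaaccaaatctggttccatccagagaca
Hspe1, chr1:55087898-55088197, plus strand: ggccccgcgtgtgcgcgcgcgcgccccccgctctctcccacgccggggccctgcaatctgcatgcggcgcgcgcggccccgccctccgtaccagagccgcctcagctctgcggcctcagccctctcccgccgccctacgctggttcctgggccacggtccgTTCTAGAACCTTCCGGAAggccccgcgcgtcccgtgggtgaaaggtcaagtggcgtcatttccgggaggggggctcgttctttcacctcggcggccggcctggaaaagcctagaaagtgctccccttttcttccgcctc
Hsph1, second window, chr5:149636266-149636565, minus strand: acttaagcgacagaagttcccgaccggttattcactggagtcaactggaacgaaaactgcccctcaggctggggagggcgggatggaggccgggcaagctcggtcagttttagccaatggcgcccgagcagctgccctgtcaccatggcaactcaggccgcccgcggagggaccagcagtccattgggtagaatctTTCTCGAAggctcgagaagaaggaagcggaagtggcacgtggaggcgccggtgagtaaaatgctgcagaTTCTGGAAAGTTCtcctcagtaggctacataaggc
Dnaja1, first window, chr4:40722218-40722517, plus strand: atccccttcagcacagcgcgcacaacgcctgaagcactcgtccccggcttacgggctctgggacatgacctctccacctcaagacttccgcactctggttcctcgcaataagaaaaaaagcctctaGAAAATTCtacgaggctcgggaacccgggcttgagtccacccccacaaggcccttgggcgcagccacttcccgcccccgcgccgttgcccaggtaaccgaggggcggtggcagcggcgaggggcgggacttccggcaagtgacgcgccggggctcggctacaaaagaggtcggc
Dnajb1, first window, chr8:83607925-83608224, plus strand: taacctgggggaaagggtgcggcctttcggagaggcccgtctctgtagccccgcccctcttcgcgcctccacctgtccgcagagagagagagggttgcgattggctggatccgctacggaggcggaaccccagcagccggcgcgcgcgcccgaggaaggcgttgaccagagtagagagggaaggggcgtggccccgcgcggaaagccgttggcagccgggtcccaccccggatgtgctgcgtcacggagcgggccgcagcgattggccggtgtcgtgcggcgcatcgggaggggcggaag

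The window of Hspa1b, its neighbour on chromosome 17, differed from that of Hspa1a at 4 of 300 bases, and both held GAAGATTC at -104 from the start site. The Hspe1 window and the second Hspd1 window overlapped by 285 bases on opposite strands, since the genes lie head to head on chromosome 1, and shared 2 matches to the 3-unit forms in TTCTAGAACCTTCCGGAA. Hsph1 held the 3-unit match TTCTGGAAAGTTC just after the start site of its second window, and a further TTCTCGAA 54 bases before it. Dnaja1 held GAAAATTC at -124 in its first window, and neither of the 2 Dnajb1 windows held any of the forms. A match is a run of letters, not a measured binding site.

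The 3 members that differed most widely between the libraries were the Hsp110 exchange factor Hsph1 and the J-domain proteins Dnajb1 and Dnaja1. Each had a ratio above 0 in 15 of 15 classes, and Hsph1 was called higher in FMT_young in 13, Dnajb1 in 13 and Dnaja1 in 14 of them, with none lower. Their median ratios over classes were 0.90, 0.82 and 0.87. Of the 3511 genes with 30 UMIs or more in all 15 classes, 0.883% were called higher in at least 13, a group of 31 genes that held these 3 members beside Klf2, Egr1, Klf6, Atf3, Fos, Igkc and Ighm. Over all 150 pairs of a member and a class, 53 were called higher and 4 lower, against 5.32% and 4.71% of the pairs of all genes. The same 3 members supplied 40 of the 53.

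**Figure D1:**
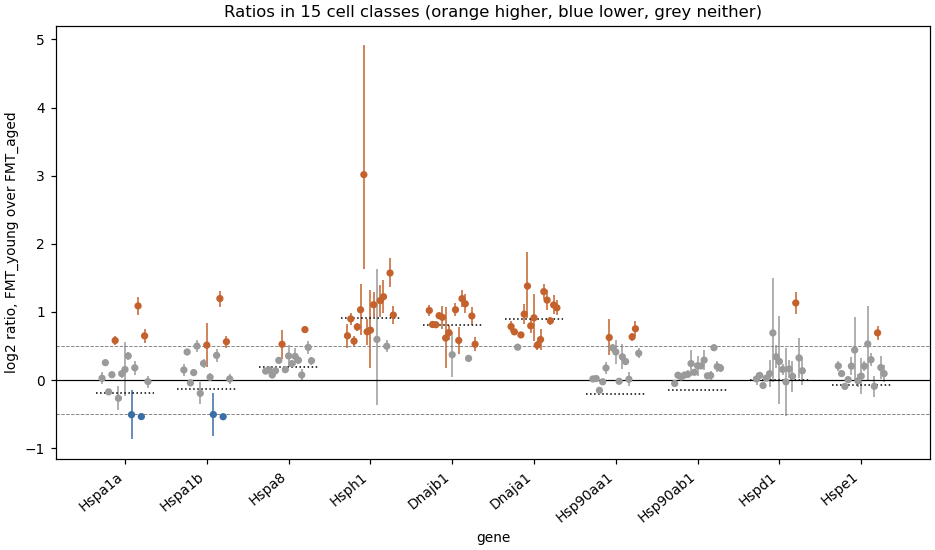
Log2 ratio of FMT_young over FMT_aged (vertical axis) for each chaperone gene (horizontal axis) in the 15 compared classes. Points are classes, bars are 95% counting intervals, dashed lines mark the call size of 0.5 and dotted lines the ratio in barcodes under 100 UMIs. Hsph1, Dnajb1 and Dnaja1 lie above 0 in all classes, and Hsp90ab1 stays inside the dashed lines.

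Dnajb1, whose protein delivers clients to Hsp70 and is itself a classic heat shock protein, lay on chromosome 8 (83608193-83612653, plus strand). Its level in HSC-like cells was 672 CPM in FMT_young and 331 CPM in FMT_aged, a ratio of 1.02 (0.94 to 1.10). In T-like cells it was 930 and 484 CPM (0.94), and in basophil- or mast-like cells 489 and 213 CPM (1.19, or 1.15 without the cluster mostly from 1 library). The FMT_young level was thus higher in progenitors, lymphocytes and granulocytes alike. The smallest ratio, 0.32, was in plasma-like cells, at 487 and 391 CPM, and it was 0.41 without the clusters mostly from 1 library. In plasmacytoid dendritic-like cells the ratio of 0.37 also missed the call size.

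Dnaja1, the other J-domain member (chromosome 4, 40722150-40737149, plus strand), was at 611 CPM in FMT_young and 355 CPM in FMT_aged HSC-like cells, a ratio of 0.79 (0.71 to 0.86). It was at 966 and 450 CPM in T-like cells, 614 and 272 CPM in mature B-like cells and 561 and 216 CPM in macrophage-like cells. GMP-like cells (granulocyte-monocyte progenitors) gave its smallest ratio, 0.48, at 493 and 353 CPM, the one class where it missed the call size.

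Hsph1 (chromosome 5, 149614287-149636376, minus strand), the Hsp110 protein that releases ADP from Hsp70, was at 119 CPM in FMT_young and 76.1 CPM in FMT_aged HSC-like cells, a ratio of 0.65 (0.48 to 0.82). T-like cells held 520 and 175 CPM, a ratio of 1.57. In macrophage-like cells the levels were 170 and 21.03 CPM, a ratio of 3.02, but the FMT_aged value rests on 4 UMIs in 66 cells and the interval ran from 1.63 to 4.91. Mature neutrophil-like cells held 29 and 14 UMIs of Hsph1, too few to separate the libraries, and plasma-like cells just missed the call size at 0.50. Without the clusters mostly from 1 library the plasma-like ratio was 0.53, which would make 14 classes higher for Hsph1. Split by cluster rather than class, over 25 clusters with 50 cells or more in each library, Dnajb1 and Dnaja1 were above 0 in all 25 and Hsph1 in 24.

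The HSC-like values depended on which cells the class held. Where immediate early, cell cycle, histone, immunoglobulin and interferon genes were also kept out of the clustering, the HSC-like class narrowed to 236 FMT_young and 377 FMT_aged cells with 11 of the HSC markers supported, and the ratios were 0.82 for Dnajb1, 0.39 for Dnaja1 and 0.05 for Hsph1. With each cell classed by its marker score they were 0.78, 0.55 and 0.27. Dnajb1 was therefore the one member past the call size in HSC-like cells under all alternatives tried.

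Several other measures also differed between the libraries. Barcodes with under 100 UMIs, which hold free RNA and not cells, gave ratios of 0.92 for Hsph1, 0.80 for Dnajb1 and 0.89 for Dnaja1, against 3.13% of genes called higher there, and the other 7 members were called in neither direction. Free RNA held 588 and 337 CPM of Dnajb1, while mature neutrophil-like cells held 183 and 122 CPM. With the free profile subtracted at 5% of the class total, the HSC-like ratios were 1.03, 0.78 and 0.62 for Dnajb1, Dnaja1 and Hsph1. Immediate early genes are switched on within minutes of stimulation or handling. In HSC-like cells 18 of 19 were called higher in FMT_young, against 3.92% of genes. Their median ratio was 1.17, and their summed level was 26186 against 11453 CPM. That sum was higher in FMT_young in 15 of 15 classes, by 0.38 to 1.44. The immediate early list was chosen with earlier results of these data known, so its counts are descriptions. Immunoglobulin genes, which plasma cells transcribe, took 0.214% and 0.0734% of the UMIs of HSC-like cells. Cell cycle genes in HSC-like cells were called lower in part. These were 9 of 22 S phase genes and 7 of 21 genes of G2 and mitosis, against 5.91% of genes. Other classes differed in direction. S phase genes were also called lower in mature B-like (14 of 21, against 11.6% of genes) and basophil- or mast-like cells (9 of 22, against 7.75%). In GMP-like, MPP-like and monocyte progenitor-like cells 0 of 22 were called in either direction. Plasma-like cells had 17 of 22 called higher, against 19.0% of genes. The part of free RNA, of handling and of cell cycle in the chaperone ratios was not tested.

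Hspa1a and Hspa1b, the stress-inducible Hsp70 pair (chromosome 17, 34969190-34972156 and 34956436-34959238, minus strand), did not follow that pattern. Their coding sequences are near copies, so the split of reads between them is uncertain and they are described together. In HSC-like cells Hspa1a was at 380 CPM in FMT_young and 373 CPM in FMT_aged, and Hspa1b at 407 and 367 CPM. The ratios were 0.03 (-0.06 to 0.11) and 0.15 (0.06 to 0.23), so any difference there was small against the call size. Each was called higher in 3 classes and lower in 2. The higher classes were mature B-like and T-like for both, with monocyte-like cells for Hspa1a (0.58) and plasmacytoid dendritic-like cells for Hspa1b (0.51).

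Mature B-like cells had the highest ratios of the pair, 698 against 328 CPM for Hspa1a (1.09) and 968 against 423 CPM for Hspa1b (1.20). The make-up of that class also differed. In FMT_young 21 of 22 genes of G2 and mitosis and 14 of 21 S phase genes were called lower, against 11.6% of genes. The summed level of the genes of G2 and mitosis was 462 against 1414 CPM. In the 2 clusters of the class the ratios were 0.57 and 1.64 for Hspa1a and 0.83 and 1.59 for Hspa1b. The part of dividing cells in these ratios was not tested. T-like cells were at 0.65 and 0.56. In mature B-like cells 5 of 10 members were called higher, against 6.77% of genes, and in T-like cells 6 of 10, against 3.88%. The 5 in mature B-like cells were this pair with Hsph1, Dnajb1 and Dnaja1, and T-like cells added Hsp90aa1 at 0.75.

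Plasma-like cells went the other way for the pair, at 610 against 885 CPM for Hspa1a and 545 against 791 CPM for Hspa1b, a ratio of -0.54 for each. They were the 2 of 10 members called lower there, against 6.58% of genes, and 5 of 10 were called higher, against 19.0% of genes. In the 1 plasma-like cluster that was not over 90% from 1 library, with 219 FMT_young and 358 FMT_aged cells, the ratios were -0.22 and -0.06 and neither was called. The 5 higher members were Dnaja1, Hspa8, Hsp90aa1, Hspd1 and Hspe1, and in that cluster their ratios were 0.79, 0.19, 0.29, 0.19 and 0.07. Mature neutrophil-like cells had the lowest levels of the pair, 35.3 against 50.2 CPM and 45.5 against 64.6 CPM. Their ratios of -0.51 made them 2 of 10 members called lower, against 3.84% of genes, and both ratios changed sign under other ways of clustering or classing the cells. Free RNA held 1110 and 1267 CPM of Hspa1a and 859 and 942 CPM of Hspa1b in FMT_young and FMT_aged. A small share of it could supply the mature neutrophil-like levels, and its part in these 2 calls was not tested.

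Hspa8, the constitutive Hsp70 that also uncoats clathrin (chromosome 9, 40800984-40810087, plus strand), had a ratio above 0 in 15 of 15 classes, but a small one, with a median of 0.28. In HSC-like cells it was at 1707 CPM in FMT_young and 1558 CPM in FMT_aged (0.13). It reached the call size in macrophage-like cells, at 0.52, and in plasma-like cells, at 0.74. Neither call held throughout. Over the alternatives tried, the macrophage-like ratio ran from 0.06 to 0.66 and the plasma-like ratio from 0.19 to 1.45.

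Hsp90aa1 (chromosome 12, 110690605-110702728, minus strand) and Hsp90ab1 (chromosome 17, 45567775-45573271, minus strand) encode the inducible and the constitutive cytosolic Hsp90. HSC-like cells held 1572 and 1555 CPM of Hsp90aa1 (0.02) and 3076 and 3186 CPM of Hsp90ab1 (-0.05). Hsp90aa1 was called higher in 3 classes, T-like, plasma-like and macrophage-like, and Hsp90ab1 in none, its ratios ranging from -0.05 to 0.47. Under 5 of the alternatives Hsp90ab1 was called higher in 1 or 2 classes, with ratios up to 1.83 in plasma-like and 0.79 in immature neutrophil-like cells. With 1 library per group the spread between animals behind such small ratios is unknown.

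The mitochondrial chaperonin Hspd1 (Hsp60; chromosome 1, 55077835-55088243, minus strand) and its lid Hspe1 (Hsp10; chromosome 1, 55088132-55091307, plus strand) differed little. HSC-like cells held 331 and 327 CPM of Hspd1 (0.02) and 617 and 535 CPM of Hspe1 (0.21). Plasma-like cells were the 1 class called higher for each, with ratios of 1.13 and 0.69. Without the clusters mostly from 1 library these were 0.19 and 0.07, short of the call size.

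In HSC-like cells as a whole 3 of 10 members were called higher and 0 lower, where 3.92% of 10933 genes were called higher and 5.91% lower. The median ratio of the members was 0.14 and that of all genes -0.12, so the members' ratios stand slightly above the bulk of genes on this scale. In HSC-like cells few genes of the other chaperone lists were called. None of 3 genes of heat shock factors and their regulators (Hsf1, Hsf2 and Hsbp1), 8 Hsp70 cochaperones or 12 Hsp90 cochaperones with enough UMIs was called in either direction. Of 17 other J-domain genes 1 was higher, Dnajb9 of the endoplasmic reticulum, at 97.8 against 56.4 CPM (0.79). Hspb1, a small heat shock protein that holds unfolded proteins, was the 1 of 3 called higher, at 39.6 against 14.9 CPM (1.41). Hspa5, the Hsp70 of the endoplasmic reticulum, was the 1 of 10 called higher in that compartment, at 1449 against 845 CPM (0.78). Of 6 other Hsp70 and Hsp110 genes Hspa2 was higher (1.08) and Hspa12b lower (-0.98). In the TRiC and prefoldin list Cct5 was the 1 of 13 called lower (-0.53), and among 8 other mitochondrial chaperones Clpx (-0.60). Over the 15 classes some genes of these lists were called higher more widely, Dnajb4 in 11, Dnajb9 in 10 and Bag3, Hspb1 and Hspa5 in 8 each. Of the 3511 genes with 30 UMIs or more in all 15 classes, 2.51% were called higher in at least 8. The shares were 1.74% for at least 10 classes and 1.42% for at least 11. Hspb1, which is outside that set, was also called lower in 1 class. Dnajb4 and Bag3 were picked out after their values were seen.

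**Figure D2:**
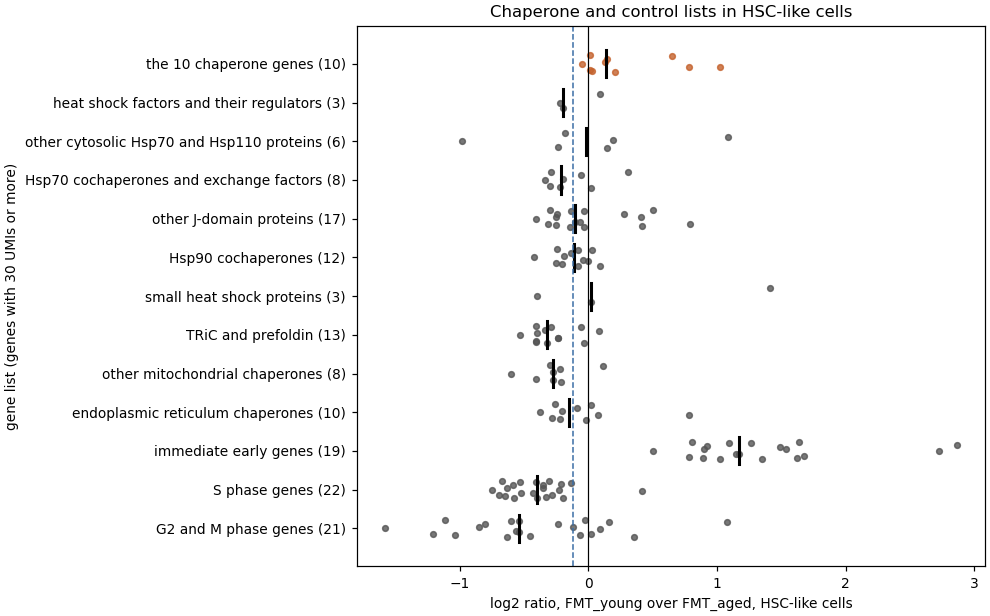
Log2 ratio of FMT_young over FMT_aged in HSC-like cells (horizontal axis) for the genes of each list (vertical axis, number of genes with 30 UMIs or more in brackets). Points are genes, black bars list medians and the dashed line the median of all genes, -0.12. The medians of the 9 other chaperone lists run from -0.32 to 0.02, while the immediate early list lies to its right with a median of 1.17.

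Across cell classes the members fell into groups by where they were high. By the geometric mean of both libraries, Hsp90ab1 and Hsp90aa1 were highest in MPP-like cells (multipotent progenitors) and Hspd1 and Hspe1 in monocyte progenitor-like cells. In that order Hsp90ab1 ran from MPP-like (3740 and 3560 CPM in FMT_young and FMT_aged) through monocyte progenitor-like (3680 and 3497 CPM) to HSC-like and GMP-like cells. The HSC-like and GMP-like levels were not apart from each other beyond counting error or a change of order between libraries. Hspa8 was highest in conventional dendritic-like cells, Hspa1a and Hspa1b in macrophage-like cells, and Hsph1, Dnajb1 and Dnaja1 in T-like cells. Levels are shares of a class total, and immunoglobulin genes took 53.4% and 57.5% of it in FMT_young and FMT_aged plasma-like cells. That lowers plasma-like levels, so the lead of T-like cells, and that of macrophage-like cells for Hspa1a, depends on the total used. On totals with immunoglobulin genes kept in, the highest class was apart from the next for Hsp90ab1, Hspa8 and Hspa1a, and not for the other 7. Hsp90aa1 was led by basophil- or mast-like cells in FMT_young (1842 CPM) and by GMP-like cells in FMT_aged (1816 CPM). Hspa1b in FMT_young was higher in T-like (1972 CPM) than in macrophage-like cells (1897 CPM), and Hsph1 in FMT_aged was higher in NK-like (202 CPM) than in T-like cells (175 CPM). The order was close to the same in both libraries for Hsp90ab1 and Hspd1, with a Spearman rank correlation of 0.98 over 16 classes for each, and least so for Dnaja1 at 0.65, where no pair of neighbours in the order was apart.

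By the geometric mean of both libraries all 10 members were lowest in mature neutrophil-like cells, which are short-lived and no longer divide. Dnaja1 in FMT_aged was the exception by library, at 196 CPM in monocyte-like and 198 CPM in mature neutrophil-like cells. From the highest class to that one the geometric mean fell 46.4-fold for Hsph1, 40.3-fold for Hspe1, 37.4-fold for Hspa1b and 37.0-fold for Hspa1a. Dnaja1 spanned only 2.71-fold and Dnajb1 4.50-fold. Mature neutrophil-like cells held 35.3 and 50.2 CPM of Hspa1a and 23.4 and 16.2 CPM of Hspe1 in FMT_young and FMT_aged. Free RNA held 1110 and 1267 CPM of Hspa1a and 494 and 519 CPM of Hspe1. A small share of free RNA could supply such low levels, and its part in these folds was not tested. Plasma-like cells were second lowest for Hspa8, both Hsp90 genes, Hspd1 and Hspe1. Immunoglobulin genes took 53.4% and 57.5% of their UMIs in FMT_young and FMT_aged. That share lowers the CPM of every other gene in plasma-like cells, so these ranks rest in part on it. In sums over the cells of a class, fewer positive cells and less RNA per cell cannot be told apart.

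**Figure D3:**
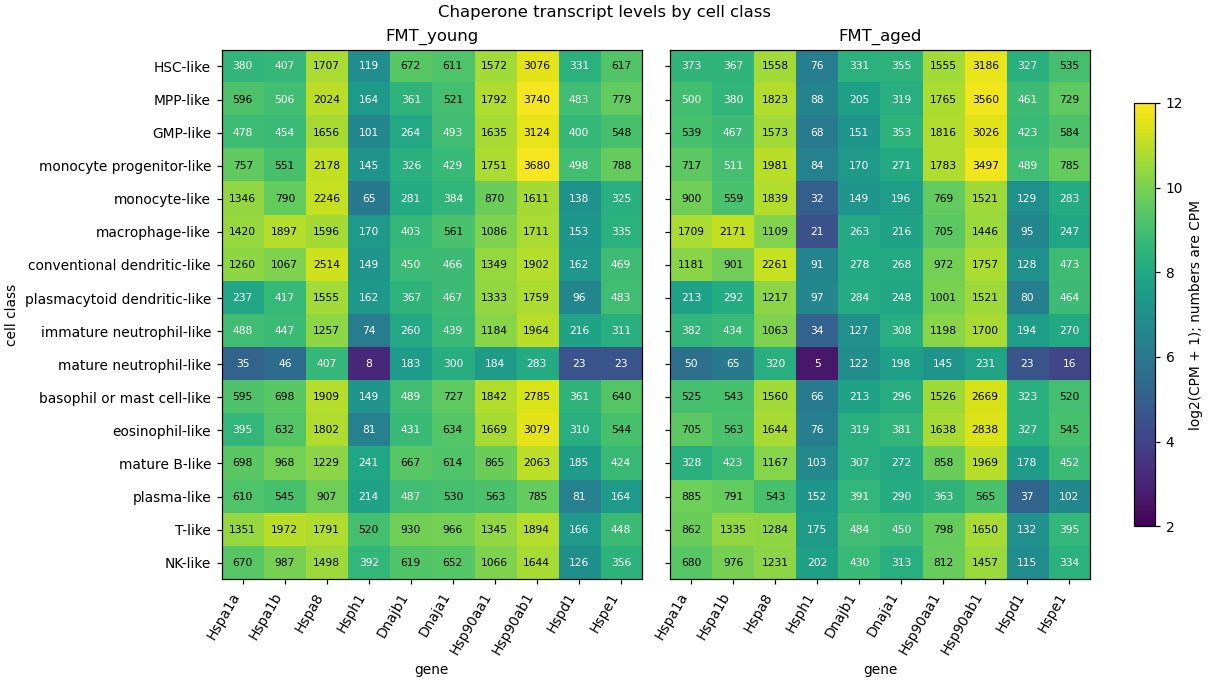
Level of each chaperone gene (horizontal axis) in 16 cell classes (vertical axis) in FMT_young (left) and FMT_aged (right). Colour is log2(CPM + 1) and the numbers are CPM. The mature neutrophil-like row is the darkest for 10 genes in FMT_young and for all but Dnaja1 in FMT_aged, and the Dnajb1 and Dnaja1 columns are brighter on the left.

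Over the 32 values of a class in a library, Hspa1a and Hspa1b followed each other with a Pearson correlation of log2(CPM + 10) of 0.93, Hsp90ab1 followed Hspe1 at 0.97 and Hspd1 at 0.95, and Hsph1 followed Dnajb1 at 0.83. These points share libraries, depth and free RNA, and the split of reads between Hspa1a and Hspa1b is uncertain, so the values are descriptions. The summed level of the S phase genes followed Hspd1 at 0.88 but Dnajb1 at -0.19. Of 5122 genes ranked, those most like the sum of Hspd1 and Hspe1 were Hsp90ab1, Npm1, Snu13, Cct3 and Wdr43 (0.99 to 0.98). Those most like the sum of Hspa8, Hsp90aa1, Hsp90ab1 and Dnaja1 were Rpl6, Hspe1, Rpl15, Rbbp7 and Rpl35 (0.97 to 0.96). Those most like the sum of Hspa1a, Hspa1b, Dnajb1 and Hsph1 were Ptp4a2, Sars, Itm2c, Mrpl52 and Tpt1, at a lower likeness of 0.88 to 0.76.

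Single cells were compared after each was thinned to 2000 UMIs, which left out 6 FMT_young and 3 FMT_aged HSC-like cells. Among HSC-like cells a UMI of Dnajb1 was found in 62.7% in FMT_young (exact binomial interval 58.6 to 66.6) and in 42.3% in FMT_aged (39.0 to 45.7), and unthinned in 87.8% and 73.6%. For Dnaja1 the thinned shares were 62.8% and 46.1%, and for Hsph1 17.7% and 10.3%. For these genes the higher sum therefore came with more cells that held a UMI. Hspa1a was found in 30.6% and 30.5% and Hsp90ab1 in 98.5% and 98.8%. Over the 15 classes the thinned share was higher in FMT_young in all 15 for Hsph1, Dnajb1 and Dnaja1, with median differences of 9.45, 14.98 and 20.1 percentage points.

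**Figure D4:**
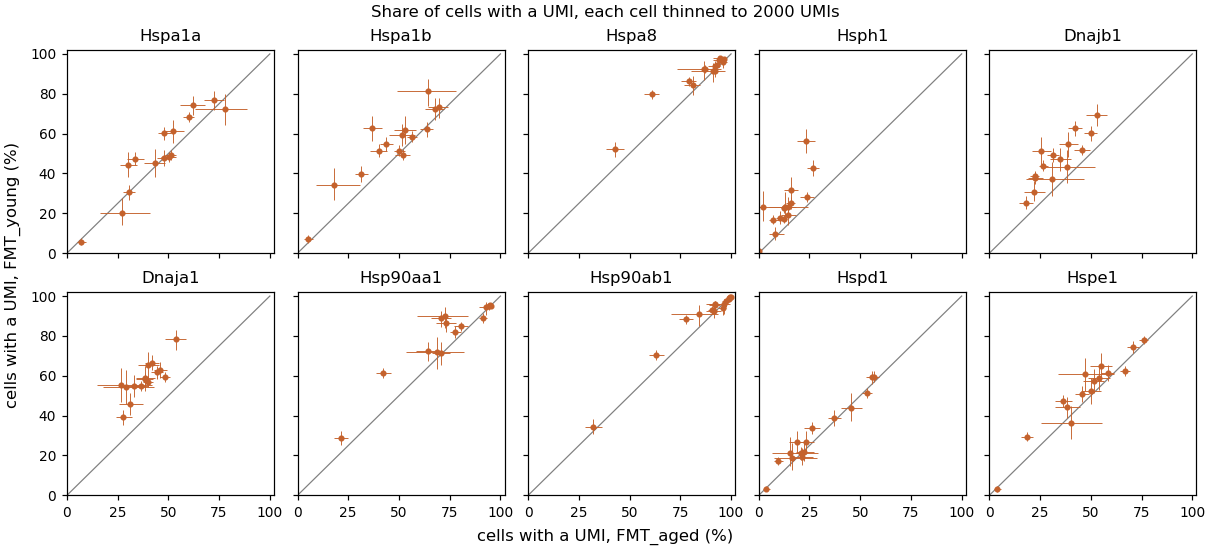
Share of cells with at least 1 UMI of each chaperone gene after thinning to 2000 UMIs, FMT_young (vertical axis, %) against FMT_aged (horizontal axis, %). Points are the 15 classes, bars are 95% exact binomial intervals and the grey line marks equal shares. All 15 points of Hsph1, Dnajb1 and Dnaja1 lie above the line, and those of Hsp90ab1 lie along it.

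Hspa1a and Hspa1b were the most unevenly spread members among the cells of a class. The variance of the thinned counts over their mean, which is 1 for pure counting, had a median of 3.11 for Hspa1a and 2.66 for Hspa1b over the classes and libraries with 50 or more positive cells, against 1.15 for Hspd1 and 1.19 for Hspe1. In HSC-like cells the top 5% of cells held 38.9% of the thinned Hspa1a UMIs in FMT_young and 40.2% in FMT_aged, compared with 11.9% and 10.7% for Hsp90ab1. A rarer gene is more concentrated by counting alone, so these shares compare libraries rather than genes. The pair was found together. Hspa1b was in 54.1% of FMT_young HSC-like cells with Hspa1a and 33.3% of those without, and in 55.4% and 20.9% in FMT_aged. The split of reads between these near copies is uncertain, and its part in these shares was not tested. Dnajb1 was found more often in cells with Hspa1a than without in 24 of 25 values of a class in a library. The median difference over the 25 was 10.9 percentage points. FMT_young HSC-like cells gave the lowest difference, at 61.3% with Hspa1a and 63.3% without, and FMT_aged HSC-like cells held 45.0% and 41.2%. FMT_young mature B-like cells gave the highest, at 70.6% with Hspa1a and 41.9% without.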

How the data were processed

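The deposited matrices hold counts, raw UMI counts per gene and barcode that the authors made with Cell Ranger 3.1.0, per the file headers, on mm10, per the submitters' processing notes. The deposited barcode and gene lists, of unit other, hold names only. Library totals were 214982156 (FMT_young) and 207642851 (FMT_aged) UMIs. The 10 genes and the gene lists were chosen with earlier results of these data known. Cells had at least 1000 UMIs, 500 genes and at most 10% mitochondrial UMIs, 11932 and 11351 barcodes. Doublet scores, computed as Scrublet does, removed 1139 and 1031 of them. The cells of both libraries were clustered jointly with 2000 variable genes (40 principal components, 20 neighbours, Leiden resolution 1.0; leidenalg 0.10.2), with chaperone genes kept out. The rule that turned marker lists into class names, which ranks names by a cluster's 10 leading genes, was settled after the clusters were seen. UMIs were summed per class and library, with exact Poisson and conditional binomial intervals (scipy 1.17.1), a procedure tested on simulated data. All 10 members are named; in each list, at most the 2 genes per direction whose interval lay farthest from 0 in HSC-like cells; for each sum, the 5 genes most like it. Gene positions come from GENCODE vM21 and matched 10 of 10 identifiers. Alternatives are in the closing section.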

Additional observations from a re-analysis of the deposited data

Results flagged for a closer look

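Hspa1a and Hspa1b lay on opposite sides in lymphoid classes: 1.09 and 1.20 in mature B-like cells, but -0.54 and -0.54 in plasma-like cells, on the log2 scale of FMT_young over FMT_aged. The plasma-like ratios rest on clusters with over 90% of cells from 1 library, and without those they were -0.22 and -0.06, neither past the call size. The difference between these classes was not tested, since each rests on 1 library per group.

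Barcodes with under 100 UMIs, which are not cells and enter the cell comparisons only in the alternative that subtracts their profile, also held more of 3 members in FMT_young, with ratios of 0.92 for Hsph1, 0.80 for Dnajb1 and 0.89 for Dnaja1. Cells whose cluster could not be named, 685 in FMT_young and 508 in FMT_aged, had ratios of 0.99 for Dnajb1, 0.52 for Dnaja1, -0.77 for Hspd1 and -0.84 for Hspe1. The last pair is opposite in sign to the median over named classes.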

How the results depend on the processing

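All values here are log2 ratios or counts under 14 alternatives in which 1 choice was changed at a time, and 1 of them, leaving out the clusters with over 90% of cells from 1 library, was chosen after seeing the data. The members called higher in HSC-like cells fell from 3 to 1 when gene families were kept out of clustering, and none was called lower under any alternative. Hsph1 was called higher in 10 to 15 classes, Dnajb1 in 12 to 14 and Dnaja1 in 12 to 15, where 14 or 15 classes were compared, since 8 alternatives left 14. Their ratio was not above 0 everywhere: in plasma-like cells at resolution 2.0 it was -0.16 for Dnajb1 and -0.27 for Hsph1, and with free RNA subtracted it was -0.45 for Hsph1 in mature neutrophil-like cells. Pairs of a member and a class called lower fell from 4 to 2 with at most 5% mitochondrial UMIs, with gene families out of clustering, with classes by marker score, with TMM scaling and without the clusters from 1 library, to 1 with the mean of cells and to 0 without doublet removal or with thinning. In mature neutrophil-like cells the sign reversed: Hspa1b was 0.31 without doublet removal, Hspa1a 0.24 and Hspa1b 0.31 with gene families out of clustering, and Hspa1a 0.71 and Hspa1b 1.04 by marker score. The cause was not tested. No paired analysis was possible because each group has 1 library. Depth limits Hsph1 most, with 4 UMIs in FMT_aged macrophage-like cells.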
